A study of Mus musculus with 6 samples.

Results

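Collagens are secreted matrix proteins built as triple helices of chains that each carry a long glycine-rich repeat. This account describes the collagen chains of the mouse embryo head at embryonic day 8.5, taken as every gene whose symbol reads Col, a number, a and a number. The rule found 44 such genes among the 24062 genes of the deposited table. They were grouped as 11 fibrillar chains, 6 type IV chains of basement membranes, 6 type VI chains, 9 fibril-associated chains (FACIT), 2 multiplexins, 4 transmembrane chains, 3 short network-forming chains and 3 others.

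Polyadenylated RNA was sequenced from heads of C57BL/6 embryos with 3 genotypes of the tm1a allele of Prdm15, a gene of the PRDM family of zinc finger regulators. The groups were wild type (Prdm15 tm1a+/+), heterozygous (Prdm15 tm1a+/-) and mutant (Prdm15 tm1a-/-), with 2 libraries in each. The labels name no litter, sex or further allele, and nothing says that the libraries of a group came from separate litters, so p-values measure only the spread between these libraries. The series title ties Prdm15 to forebrain development and Otx2, and the comparisons address what differs in the head between genotypes. The wild-type group is the reference of both comparisons below that name it, so their values share those 2 libraries.

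Fibrillar chains assemble into the banded fibrils of mesenchyme and cartilage. Type IV chains form the sheet-like network of basement membranes, which also holds laminins, nidogens and heparan sulfate proteoglycans such as collagen XVIII. In the early head, basement membranes line the neural plate, the surface ectoderm, the gut endoderm and the vessels, while fibrils begin to form in the mesenchyme. A triple helix needs its partner chains together in 1 cell, and chaperones and prolyl hydroxylases in the endoplasmic reticulum, before it can be secreted.

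Reads assigned to genes numbered 29412227 to 40439234 per library. Prdm15 read 35.1 and 32.6 CPM, counts scaled to library size, in wild type, 28.3 and 31.8 in heterozygotes and 26.5 and 32.0 in mutants, and its difference between mutants and wild type did not pass (log2 fold change -0.21, SE 0.12, adjusted p = 0.221). Those counts span the whole gene and do not show the inserted allele, so they leave the genotype labels unchecked. The count files of wild-type replicate 2 and mutant replicate 1 were attached to each other's sample, and each file was taken here for the title it bears. Taken so, all 12258 and 12064 genes compared matched the deposited RPKM within 0.1%. As attached, only 0.356% and 0.465% of the genes compared matched within that limit. No collagen chain passed in any comparison with the files as attached. Reads from Xist and from the Y chromosome showed that wild-type replicate 1 and both heterozygous libraries were male, and that wild-type replicate 2 and both mutant libraries were female. Other tissues also differed between libraries: the summed level of 9 visceral endoderm markers was 6.21 and 12.1 CPM in wild type, 2409 and 1735 in heterozygotes and 4400 and 3670 in mutants, and 9 of 9 were higher in each group against wild type. Sums of 8 heart markers were 192 and 43.3, then 1444 and 2437, then 1540 and 845 CPM in the same order, with 8 of 8 higher in mutants and 6 of 8 in heterozygotes. No marker of either list was at 0 in any group. Among all genes tested, 17.1% were higher in mutants and 6.03% in heterozygotes, each against wild type.

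The 4 abundant type IV chains of basement membranes lie as 2 pairs on opposite strands, each pair starting close together. Their promoter windows are shown because the RNA of Col4a1, Col4a2 and Col4a5 was higher in mutants than in wild type while that of Col4a6, which starts beside Col4a5, did not pass. Each window covers 250 bases before to 50 after the RefSeq start on GRCm38.p6, written 5′ to 3′ on the gene's strand. Capitals mark GC boxes (GGGCGG or CCGCCC) and CCAAT boxes (CCAAT or ATTGG), and a TATA box (TATAAA or TTTATA) was in none of the 4. Both strands were searched, and no match in these windows overlaps another. The windows are Col4a1 at chr8:11312777-11313076 on the minus strand, Col4a2 at chr8:11312555-11312854 on the plus strand, Col4a5 at chrX:141475169-141475468 on the plus strand and Col4a6 at chrX:141474027-141474326 on the minus strand.
Col4a1: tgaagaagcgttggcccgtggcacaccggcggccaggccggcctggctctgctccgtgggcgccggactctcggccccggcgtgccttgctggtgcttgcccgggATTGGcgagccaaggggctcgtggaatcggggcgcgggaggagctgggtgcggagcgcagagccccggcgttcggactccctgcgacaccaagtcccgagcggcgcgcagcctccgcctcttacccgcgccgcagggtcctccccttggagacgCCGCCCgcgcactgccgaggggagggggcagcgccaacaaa
Col4a2: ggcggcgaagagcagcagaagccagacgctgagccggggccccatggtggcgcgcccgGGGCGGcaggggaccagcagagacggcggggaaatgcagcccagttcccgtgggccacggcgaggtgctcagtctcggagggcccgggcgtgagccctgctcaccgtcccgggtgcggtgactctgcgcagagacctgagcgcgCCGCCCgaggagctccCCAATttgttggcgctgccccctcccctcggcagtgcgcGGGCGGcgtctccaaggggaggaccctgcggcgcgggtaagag
Col4a5: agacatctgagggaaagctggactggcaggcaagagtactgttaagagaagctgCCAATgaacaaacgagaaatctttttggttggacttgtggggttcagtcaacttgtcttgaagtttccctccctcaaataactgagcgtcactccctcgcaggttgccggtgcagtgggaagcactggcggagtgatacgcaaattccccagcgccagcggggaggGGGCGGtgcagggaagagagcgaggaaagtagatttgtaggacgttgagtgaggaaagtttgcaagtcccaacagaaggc
Col4a6: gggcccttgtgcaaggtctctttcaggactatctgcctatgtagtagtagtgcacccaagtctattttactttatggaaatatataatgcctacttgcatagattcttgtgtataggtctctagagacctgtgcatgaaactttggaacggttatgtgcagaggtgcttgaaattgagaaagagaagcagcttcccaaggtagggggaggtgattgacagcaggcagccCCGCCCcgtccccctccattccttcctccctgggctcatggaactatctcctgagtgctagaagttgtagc
The Col4a1 and Col4a2 windows share 78 bases, since these genes overlap at their starts, and they hold 74% and 73.7% G or C. Col4a5 and Col4a6 start 1343 bases apart, share no base of their windows and hold 52.7% and 48.3% G or C, against a median of 52.7% over all promoters of the table. Col4a2 held 3 GC boxes and the others 1 each, and Col4a6 alone of the 4 held no CCAAT box. RefSeq windows were found for 35 of the 44 collagen genes, 38 windows in all. A GC box was in 60.5% of these windows and in 35.7% of the 32851 windows in the table. CCAAT was in 34.2% of the collagen windows against 37.4% of all, and TATA in 13.2% against 13.6%. These matches describe letters in a window and are not binding sites.

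Levels between chains were compared in RPKM, reads scaled to gene length and library size, which the authors deposited per library. Of the 44 chains, 25 had a mean of at least 1 RPKM over the 6 libraries, and only Col10a1, the network chain of growth cartilage, had no read in any library. Col18a1 was the most abundant, with a mean of 114.9 RPKM and a range of 84.5 to 133. It was followed by Col4a1 at 78.8, Col2a1 at 62.9 and Col4a2 at 43.2. These 4 chains held between 64.4% and 73.7% of all collagen RPKM of a library. The ranges of Col4a1 (54.1 to 98.2) and Col2a1 (43.5 to 75.6) overlapped across libraries, so the order of these neighbours was not fixed. Next came Col26a1, Col5a1 and Col1a2, whose means of 20.3, 19.9 and 18.8 RPKM lay within each other's ranges.

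**Figure D1:**
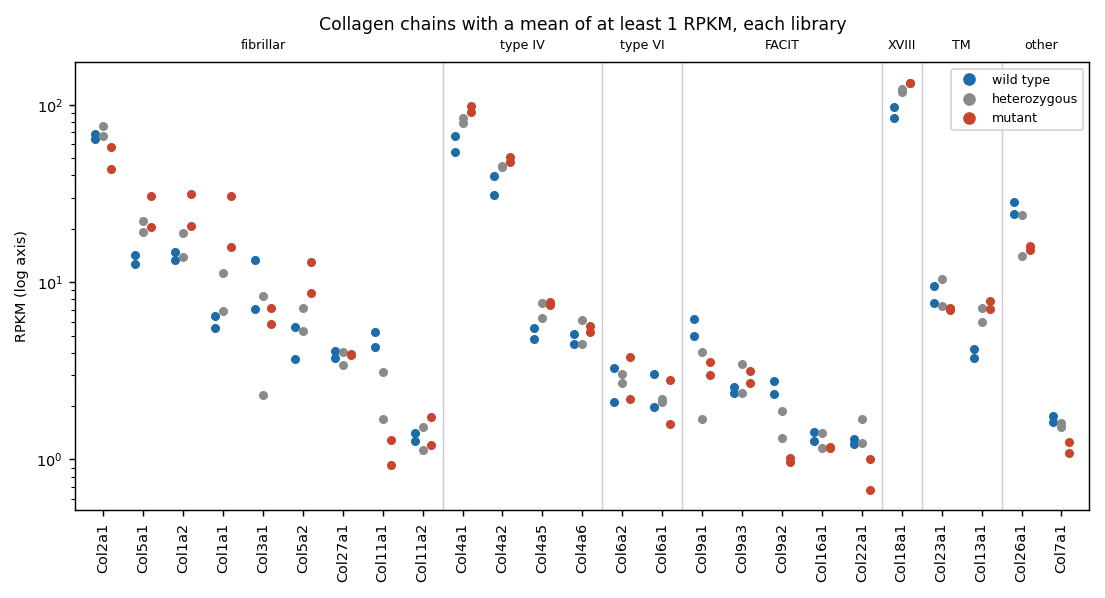
RPKM of the 25 collagen chains with a mean of at least 1 RPKM, on a log axis, 1 point per library, grouped by class (TM: transmembrane). Col18a1, Col4a1, Col2a1 and Col4a2 stand above the rest, and the mutant points of Col1a1 (15.7 and 30.4) lie above all others of that chain while those of Col11a1 (0.931 and 1.29) lie below.

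The summed RPKM of all 44 chains was 366 and 403 in wild type, 431 and 469 in heterozygotes and 508 and 468 in mutants. Every heterozygous and mutant library lay above both wild-type libraries. Collagen reads made up 0.210% and 0.230% of gene reads in wild type, 0.248% and 0.272% in heterozygotes and 0.287% and 0.273% in mutants. The type IV sum was 95.7 and 116 RPKM in wild type, 139 and 138 in heterozygotes and 152 and 162 in mutants, with no overlap between the 3 groups. Fibrillar chains summed to 116 and 134, then 121 and 153, then 177 and 122 RPKM, and all 3 groups overlapped. As a share of collagen RPKM, type IV held 27.4% ± 1.78 (SD, n = 2) in wild type, 30.9% ± 1.997 in heterozygotes and 32.3% ± 3.35 in mutants. The FACIT sum went the other way in level, at 13.4 and 15.5 RPKM in wild type and 10.99 and 10.9 in mutants, with heterozygotes at 9.92 and 13.4. In RNA from whole heads, fewer cells of a type and less RNA per cell cannot be told apart.

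**Figure D2:**
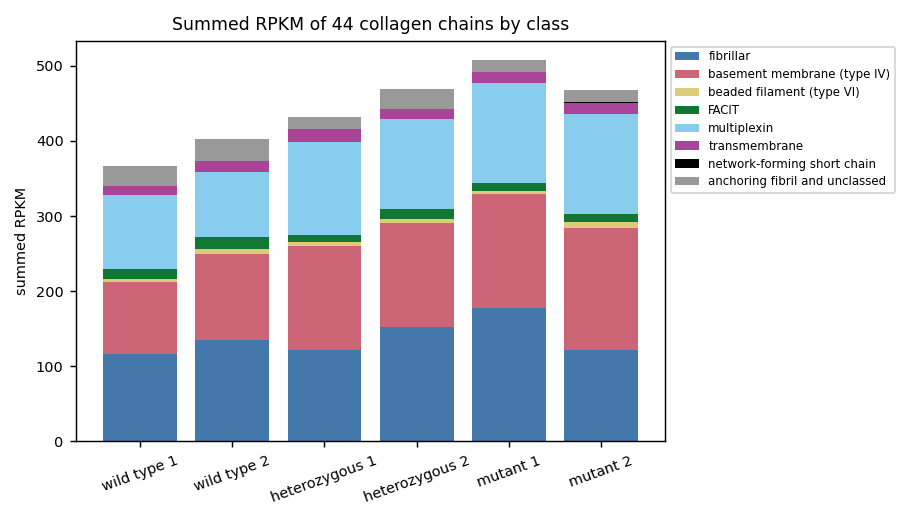
Summed RPKM of the 44 collagen chains in each library, stacked by class from 0. The type IV part is smallest in the wild-type libraries (95.7 and 116) and largest in the mutant ones (152 and 162).

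Counts were tested with edgeR's quasi-likelihood F-test with Benjamini-Hochberg adjustment over all 15187 genes with enough reads, and 35 of the 44 chains were among them. In mutants against wild type 10 chains were higher, where 17.1% of all genes tested were higher, and 5 were lower, where 13.6% of all genes were lower. The median log2 fold change of the 35 chains was 0.01, against -0.02 over all genes, and the median size regardless of sign was 0.62, against 0.28 over all genes. The higher chains were Col1a1, Col1a2, Col5a1 and Col5a2 of the fibrils, Col4a1, Col4a2 and Col4a5 of the basement membrane, Col18a1, Col13a1 and Col14a1. The lower chains were Col11a1, Col9a2, Col15a1, Col25a1 and Col7a1. Col4a1, Col18a1, Col13a1 and Col11a1 passed in all 6 fits that left out 1 library, with adjusted p of at most 0.0445. Both mutant libraries were female and both heterozygous ones male, so a term for embryo sex is set by the 2 wild-type libraries alone. With it mutants are compared with wild-type replicate 2 only, as in the fit without wild-type replicate 1. These 2 fits are therefore not separate checks. Both lost Col1a1, Col1a2, Col5a1, Col5a2, Col14a1, Col15a1, Col25a1 and Col7a1, which include every fibrillar chain called higher. Both kept Col11a1, Col9a2, Col13a1, Col18a1 and the 3 type IV chains. The sex term lowered the calls over all 15187 genes too, to 1571 higher and 929 lower from 2594 and 2060. Fewer chains, and fewer of all genes tested, were called in each fit that left out 1 wild-type or mutant library.

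**Figure D3:**
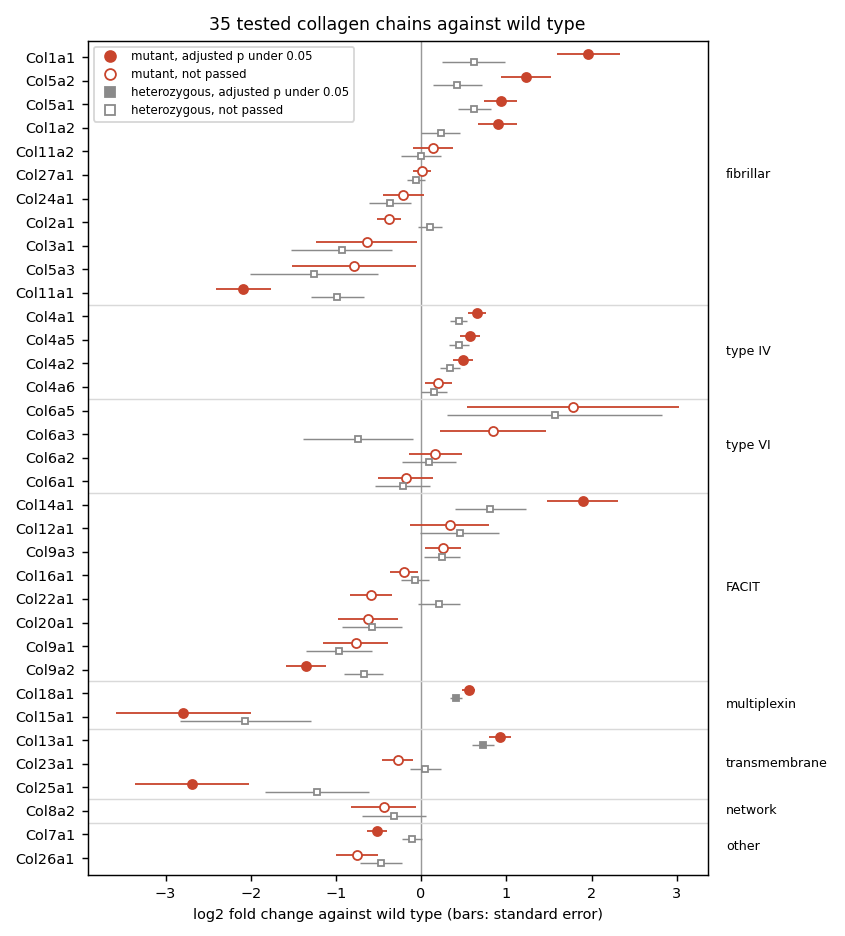
Log2 fold change with its standard error of the 35 tested collagen chains, mutant (circles) and heterozygous (squares) against wild type, by class; filled symbols have an adjusted p under 0.05. Both comparisons use the same wild-type libraries. In mutants Col1a1 lies at 1.96 and Col11a1 at -2.09 within the fibrillar class, and the 4 tested type IV chains lie between 0.20 and 0.66.

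Of the 11 fibrillar chains, all tested, 4 were higher in mutants, 1 was lower and 6 did not pass. Over all genes tested 17.1% were higher and 13.6% lower. Col1a1 (chr11:94936224-94953042) and Col1a2 (chr6:4504814-4541544) encode the chains of type I collagen, the main fibril of mesenchyme, skin and bone. Col1a1 read 5.51 and 6.42 RPKM in wild type, 6.90 and 11.3 in heterozygotes and 30.4 and 15.7 in mutants. The mutant libraries were the highest, and the 3 groups did not overlap. The log2 fold change of mutants against wild type was 1.96 (SE 0.37, adjusted p = 0.0140). Col1a2 read 13.4 and 14.7 RPKM in wild type, 13.9 and 18.9 in heterozygotes and 31.4 and 20.7 in mutants, with the mutants above all other libraries. It was higher in mutants by 0.90 on the log2 scale (SE 0.23, adjusted p = 0.0335). The RPKM ratio of Col1a1 to Col1a2 was 0.411 and 0.435 in wild type, 0.495 and 0.598 in heterozygotes and 0.970 and 0.760 in mutants, in separate ranges. Mature type I collagen usually holds more alpha 1 than alpha 2 chains, and the ratio of their RNA was under 1 in all 6 libraries. Without wild-type replicate 1 Col1a1 read 1.87 (adjusted p = 0.0632) and Col1a2 0.84 (adjusted p = 0.120), and with the sex term 1.86 (adjusted p = 0.0644) and 0.83 (adjusted p = 0.125). Col1a2 also missed the threshold without wild-type replicate 2 (0.95, adjusted p = 0.0720) and without mutant replicate 1 (0.57, adjusted p = 0.114).

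Type V collagen starts and limits the width of type I fibrils. Col5a1 (chr2:27886425-28039514) read 12.7 and 14.2 RPKM in wild type, 19.1 and 22.2 in heterozygotes and 30.5 and 20.5 in mutants, and was higher in mutants with a log2 fold change of 0.93 (SE 0.20, adjusted p = 0.0183). Both wild-type libraries lay below the 4 others, and heterozygotes and mutants overlapped. Col5a2 (chr1:45374321-45503282) read 3.69 and 5.62, then 5.29 and 7.17, then 13.0 and 8.67 RPKM, with a log2 fold change of 1.23 (SE 0.29, adjusted p = 0.0262). Mutant libraries were the highest for this chain, and wild type and heterozygotes overlapped. Col5a3, the remaining chain of type V, had at most 0.253 RPKM and did not pass. Without wild-type replicate 1 Col5a1 read 0.86 (adjusted p = 0.0770) and Col5a2 0.97 (adjusted p = 0.0887). With the sex term they read 0.85 (adjusted p = 0.0801) and 0.96 (adjusted p = 0.0927). Col5a2 also missed the threshold without mutant replicate 1 (0.91, adjusted p = 0.107). Head mesenchyme markers summed over 8 genes to 317 and 357 CPM in wild type, 411 and 414 in heterozygotes and 448 and 520 in mutants. In mutants 5 of 8 were higher and 1 lower, and none was at 0 in any group. Within mutants this sum was larger in replicate 2, while Col1a1, Col1a2, Col5a1 and Col5a2 all read more in replicate 1. The sum of 5 markers of extraembryonic mesoderm and amnion was 60.2 and 54.6, then 186 and 171, then 411 and 278 CPM, with 4 of 4 tested higher and none at 0. The part of either tissue in the levels of type I and type V chains was not tested.

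Col3a1, which co-polymerises with type I collagen in vessels and loose tissue, lies 24615 bases from Col5a2 on chromosome 1 and did not follow it. It read 7.08 and 13.3 RPKM in wild type, 2.32 and 8.33 in heterozygotes and 7.14 and 5.83 in mutants, so the groups overlapped and its log2 fold change of -0.64 (SE 0.59, adjusted p = 0.447) did not pass. Wild-type replicate 2 was the highest library for Col3a1, and mutant replicate 2 lay above heterozygous replicate 1 only. Wild-type replicate 2 and mutant replicate 2 also held RNA of 6 decidual and uterine lymphocyte markers. Their sums were 322 and 118 CPM against 2.05 to 7.04 CPM in the 4 others. None of those 6 markers passed between genotypes, and the part of maternal tissue in Col3a1 was not tested.

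Cartilage-type fibrils pair type II and type XI collagen, and type IX collagen sits on their surface. Col2a1 (chr15:97975602-98004695), which early embryos also transcribe in notochord and neuroepithelium, was the most abundant fibrillar chain. It read 64.1 and 68.8 RPKM in wild type, 66.9 and 75.6 in heterozygotes and 58.2 and 43.5 in mutants. The mutants were the lowest, and the log2 fold change of -0.38 (SE 0.15, adjusted p = 0.102) did not pass. Col2a1 did pass in DESeq2 (-0.37, adjusted p = 0.0308) and without mutant replicate 1 (-0.60, adjusted p = 0.0274).

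Col11a1 (chr3:114030540-114220718), the partner of type II fibrils, fell the most among the fibrillar chains. It read 4.28 and 5.25 RPKM in wild type, 1.69 and 3.11 in heterozygotes and 1.29 and 0.931 in mutants. The 3 groups did not overlap, and mutants differed from wild type by -2.09 on the log2 scale (SE 0.32, adjusted p = 0.00792). Col11a2, its partner in type XI collagen, ranged from 1.13 to 1.73 RPKM and did not pass (0.14, SE 0.24, adjusted p = 0.692). The RPKM ratio of Col2a1 to Col11a1 was 14.98 and 13.1 in wild type, 39.6 and 24.3 in heterozygotes and 45.0 and 46.7 in mutants. Type XI collagen uses the Col2a1 product as its remaining chain, and Col2a1 RNA was in excess of Col11a1 RNA in every library.

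Col9a2 (chr4:121039385-121055322), a chain of the FACIT collagen IX, read 2.33 and 2.78 RPKM in wild type, 1.32 and 1.88 in heterozygotes and 1.02 and 0.967 in mutants. The groups did not overlap, and mutants were lower, with a log2 fold change of -1.35 (SE 0.23, adjusted p = 0.0107). Without mutant replicate 1 it read -1.39 (adjusted p = 0.0574) and without mutant replicate 2 -1.32 (adjusted p = 0.0545). Col9a1 read 4.99 and 6.20, then 1.69 and 4.02, then 2.999 and 3.55 RPKM and did not pass (-0.77, SE 0.38, adjusted p = 0.180). Wild type was above every other library for this chain, and heterozygotes and mutants overlapped. Col9a1 did pass in the fit of the 2 groups alone (-0.77, adjusted p = 0.0265), without heterozygous replicate 1 (-0.77, adjusted p = 0.0276) and without heterozygous replicate 2 (-0.77, adjusted p = 0.0296). Col9a3, the remaining chain of this trimer, had 2.38 and 2.56 RPKM in wild type, 3.45 and 2.38 in heterozygotes and 3.17 and 2.69 in mutants, and did not pass (0.26, SE 0.21, adjusted p = 0.398). It overlaps Tcfl5 on the opposite strand, which averaged 26.4 CPM, and no source used here gives the strand setting of the counter, so its level is uncertain. The Col9a3 to Col9a2 ratio was 1.02 and 0.922 in wild type, 2.62 and 1.27 in heterozygotes and 3.10 and 2.78 in mutants. Sox9, the regulator that activates Col2a1, Col9 and Col11 genes in cartilage, read 104 and 97.0 CPM in wild type, 75.6 and 91.0 in heterozygotes and 59.7 and 37.4 in mutants (-1.05, SE 0.22, adjusted p = 0.0183). It belongs to a list of 9 notochord, floor plate and Sox genes of matrix control, of which 2 were lower (Sox9 and Sox5), 2 higher (Noto and Foxa2) and 5 did not pass, with none at 0. Summed over these 9 genes, wild-type libraries held 185 and 189 CPM, heterozygous ones 136 and 170 and mutant ones 133 and 144. Sox9 was the most abundant of the 9 in every library, so the sum does not stand for the notochord genes. The median log2 fold change of the 9 genes in mutants was 0.53. Of those that did not pass, T, Chrd and Foxj1 read higher in both mutant libraries than in both wild-type ones, and Shh and Sox6 lower. Noto, a notochord gene, rose from 0.169 and 0.0853 CPM in wild type to 0.452 and 3.27 in mutants (adjusted p = 0.0395), most of it in mutant replicate 2, and Foxa2, of notochord and floor plate, by 0.53 on the log2 scale (adjusted p = 0.0298). Neural crest markers summed to 317 and 378 CPM in wild type, 95.3 and 197 in heterozygotes and 89.4 and 73.1 in mutants, with 4 of 6 lower, 1 higher and none at 0. Neural progenitor markers summed to 666 and 629, then 495 and 546, then 342 and 376 CPM, with 7 of 8 lower and none at 0. The part of Sox9 or of these tissues in the levels of Col2a1, Col11a1 and Col9a2 was not tested.

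**Figure D4:**
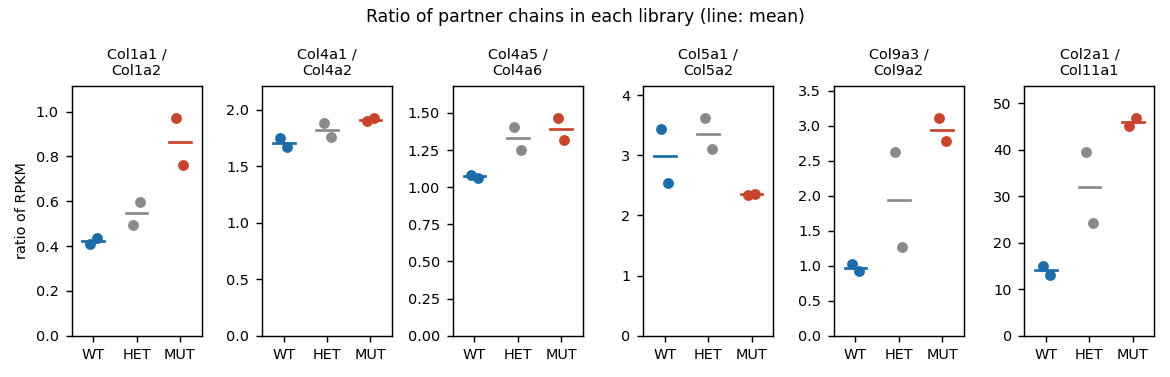
Ratio of the RPKM of chains that share a trimer or fibril, each library as a point and the group mean as a line, each axis from 0. The ratios of Col1a1 to Col1a2 and of Col2a1 to Col11a1 are lowest in both wild-type libraries (0.411 and 0.435, 14.98 and 13.1) and highest in both mutant libraries; the ratios are a description and were not tested.

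Of the other fibrillar chains, Col27a1, a chain of cartilage matrix, ranged from 3.41 to 4.08 RPKM and had a log2 fold change of 0.01 (SE 0.10, adjusted p = 0.960). Col24a1, related to it in structure, had at most 0.379 RPKM and did not pass.

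Of the 6 type IV chains 4 were tested, and 3 of these were higher in mutants and none lower. Of all genes tested 17.1% were higher and 13.6% lower. Col4a1 (chr8:11198423-11312826) and Col4a2 (chr8:11312805-11449287) form the trimer found in nearly all basement membranes. Col4a1 read 54.1 and 66.4 RPKM in wild type, 84.0 and 79.2 in heterozygotes and 91.1 and 98.2 in mutants. The 3 groups did not overlap, and mutants were higher by a log2 fold change of 0.66 (SE 0.10, adjusted p = 0.00835). Col4a2 read 31.0 and 39.8, then 44.5 and 45.1, then 47.9 and 51.0 RPKM, again in separate ranges, with a log2 fold change of 0.49 (SE 0.12, adjusted p = 0.0276). This call was lost without mutant replicate 1 (0.54, adjusted p = 0.0741), without mutant replicate 2 (0.44, adjusted p = 0.114) and without heterozygous replicate 2 (0.49, adjusted p = 0.0544). The ratio of Col4a1 to Col4a2 stayed between 1.67 and 1.92 in all 6 libraries, and the protein trimer also holds more alpha 1 than alpha 2. These are the neighbours whose promoter windows share bases, and they overlap on opposite strands at their starts.

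Col4a5 (chrX:141475385-141689234) and Col4a6 (chrX:141165403-141474076), X-linked chains of embryonic epithelial basement membranes, form a trimer that replaces the common one in some tissues. Col4a5 read 5.501 and 4.76 RPKM in wild type, 6.31 and 7.64 in heterozygotes and 7.70 and 7.47 in mutants. Both wild-type libraries were the lowest, and the log2 fold change of mutants was 0.57 (SE 0.12, adjusted p = 0.0182). It missed the threshold without wild-type replicate 2 (0.46, adjusted p = 0.0680), without mutant replicate 1 (0.55, adjusted p = 0.0880) and without mutant replicate 2 (0.59, adjusted p = 0.0679). Col4a6 read 5.08 and 4.48, then 4.49 and 6.11, then 5.26 and 5.67 RPKM and did not pass (0.20, SE 0.16, adjusted p = 0.371). The Col4a5 to Col4a6 ratio was 1.08 and 1.06 in wild type, 1.41 and 1.25 in heterozygotes and 1.46 and 1.32 in mutants. Among the 3 female libraries Col4a5 read 4.76 RPKM in the only wild-type one and 7.70 and 7.47 in the mutants. With a term for embryo sex, which sets mutants against that same wild-type library alone, the log2 fold change of Col4a5 was 0.68. The part of sex in the Col4a5 level was not tested. Col4a3 and Col4a4, which with Col4a5 make the trimer of the adult kidney filter, had at most 0.0300 RPKM and were too low to test.

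Endothelial markers, which mark vessels lined by basement membrane, summed to 255 to 393 CPM over the 6 libraries, with 1 of 8 higher in mutants and none at 0. Markers of parietal endoderm, a rich source of type IV collagen outside the embryo, summed to 152 and 187 CPM in wild type, 183 and 162 in heterozygotes and 167 and 241 in mutants, with 2 of 6 higher, 1 lower and none at 0. The visceral endoderm sums given above were higher in every heterozygous and mutant library than in wild type, as were Col4a1, Col4a2, Col4a5 and Col18a1. Within mutants that sum and Col4a5 were larger in replicate 1, Col4a1 and Col4a2 were larger in replicate 2, and Col18a1 hardly differed. Surface ectoderm markers summed to 385 and 381 CPM in wild type, 698 and 549 in heterozygotes and 1056 and 887 in mutants. Of these 6 genes 2 were higher (the keratins Krt8 and Krt18 of simple epithelia), 2 lower (Tfap2a and Trp63) and none at 0. Trunk and tailbud markers summed to 36.9 and 4.65, then 47.8 and 62.1, then 76.6 and 175 CPM, with 3 of 7 tested higher, and Msgn1 was at 0 in heterozygotes. The part of any of these tissues in the type IV and Col18a1 levels was not tested.

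Multiplexins are proteoglycan-like collagens of basement membranes. Col18a1 (chr10:77052178-77166548), whose C-terminal fragment is endostatin, read 97.3 and 84.5 RPKM in wild type, 123 and 119 in heterozygotes and 133 and 133 in mutants. The groups did not overlap, and mutants were higher by 0.56 on the log2 scale (SE 0.07, adjusted p = 0.00504). It overlaps Slc19a1 on the opposite strand, which averaged 33.5 CPM. Col15a1 (chr4:47208161-47313167), the related chain of muscle and capillary basement membranes, went the other way. It read 1.21 and 2.30 RPKM in wild type, 0.158 and 0.680 in heterozygotes and 0.144 and 0.365 in mutants, and fell by 2.79 on the log2 scale (SE 0.79, adjusted p = 0.0454). Both wild-type libraries were above all others, and the 4 others overlapped. Its call was lost without any 1 of the wild-type or mutant libraries, with log2 fold changes from -3.59 to -2.25 and adjusted p from 0.0640 to 0.190 in those 4 fits.

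Transmembrane collagens stay anchored in the cell membrane. Col13a1 (chr10:61838236-61979108), found at cell adhesion sites, read 3.72 and 4.18 RPKM in wild type, 7.13 and 5.96 in heterozygotes and 7.06 and 7.82 in mutants. Wild-type libraries were the lowest, and the log2 fold change of mutants was 0.92 (SE 0.13, adjusted p = 0.00582). Col23a1 read 7.67 and 9.56, then 10.5 and 7.35, then 7.17 and 6.97 RPKM and did not pass (-0.28, SE 0.19, adjusted p = 0.302). Col25a1, a neuronal collagen, was lower in mutants by a log2 fold change of -2.69 (SE 0.67, adjusted p = 0.0315) on few reads. It had 66 and 50 reads in wild type, 10 and 29 in heterozygotes and 5 and 10 in mutants, and is described because it passed, after its values were seen. The fits that left out 1 wild-type or mutant library gave adjusted p of 0.0628 to 0.148 for Col25a1, with log2 fold changes of -3.48 to -2.13.

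FACIT chains other than collagen IX attach to the surface of fibrils. Col14a1 (chr15:55307750-55520803), which binds type I fibrils, was low at 0.169 and 0.128 RPKM in wild type, 0.180 and 0.343 in heterozygotes and 0.435 and 0.676 in mutants. In reads these were 45 and 29, 36 and 66, and 106 and 128. The 3 groups did not overlap, and mutants were higher by 1.90 on the log2 scale (SE 0.42, adjusted p = 0.0214). Without wild-type replicate 1 Col14a1 read 2.13 (adjusted p = 0.0630), without wild-type replicate 2 1.70 (adjusted p = 0.0786) and without mutant replicate 2 1.54 (adjusted p = 0.0953). Col16a1 ranged from 1.16 to 1.43 RPKM, Col22a1, a chain of tissue junctions, from 0.673 to 1.68, and Col12a1, the relative of Col14a1, from 0.660 to 1.51, and none of them passed. Col20a1 also missed the threshold, and Col19a1 was too low to test.

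Col7a1 (chr9:108953586-108984875), the anchoring fibril beneath stratified epithelia, read 1.75 and 1.63 RPKM in wild type, 1.52 and 1.61 in heterozygotes and 1.09 and 1.26 in mutants. The 3 groups did not overlap. Mutants were lower with a log2 fold change of -0.52 (SE 0.11, adjusted p = 0.0216), the smallest of the 5 falls. Scaling to the neural progenitor list, of which 7 of 8 genes were themselves lower in mutants, shifted every gene upward, the median gene by 0.80, and put Col7a1 at 0.28, below that shift. Col7a1 missed the threshold without wild-type replicate 1 (-0.45, adjusted p = 0.104), without wild-type replicate 2 (-0.58, adjusted p = 0.05003) and without mutant replicate 1 (-0.42, adjusted p = 0.117). Col26a1 (chr5:136741759-136883209), a chain with short collagen repeats, was the fifth most abundant chain. It read 24.2 and 28.4 RPKM in wild type, 14.0 and 24.1 in heterozygotes and 15.2 and 15.9 in mutants. Wild-type libraries were the highest, heterozygotes and mutants overlapped, and the log2 fold change of -0.75 (SE 0.25, adjusted p = 0.0681) did not pass. Col26a1 passed in DESeq2 (-0.74, adjusted p = 0.00872), without heterozygous replicate 1 (-0.75, adjusted p = 0.00930) and without heterozygous replicate 2 (-0.76, adjusted p = 0.0108).

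Type VI collagen forms beaded filaments around cells, from Col6a1, Col6a2 and a larger chain such as Col6a3. Col6a1 read 1.98 and 3.02 RPKM in wild type, 2.10 and 2.18 in heterozygotes and 1.58 and 2.81 in mutants. Col6a2 read 2.10 and 3.27, then 2.68 and 3.03, then 2.21 and 3.81 RPKM. Neither passed, and for both chains wild-type replicate 2 and mutant replicate 2 were the 2 highest libraries. Col6a3 was also highest there, at 0.252 and 0.371 RPKM against 0.0694 to 0.202 in the others, and did not pass (0.84, SE 0.62, adjusted p = 0.346). Without wild-type replicate 2 Col6a3 was called higher in mutants (2.03, SE 0.51, adjusted p = 0.0448). Wild-type replicate 2 and mutant replicate 2 are the libraries with the decidual markers. The part of that tissue in type VI chains was not tested. Col6a5 had at most 15 reads in a library and did not pass, and Col6a4 and Col6a6 were too low to test. Of the short network-forming chains only Col8a2 was tested, at most 0.375 RPKM, and it did not pass. The 9 chains too low to test were Col4a3, Col4a4, Col6a4, Col6a6, Col8a1, Col10a1, Col17a1, Col19a1 and Col28a1, with at most 0.164 CPM on average.

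In heterozygotes against wild type 2 chains were higher, Col18a1 and Col13a1, where 6.03% of all genes tested were higher, and none was lower, where 0.533% of all genes were. At an unadjusted p under 0.05, 10 of the 35 chains differed, where 3598 of all 15187 genes did. DESeq2 called 6 chains higher and 2 lower, where 1416 and 474 of the 15187 genes were. Col18a1 had a log2 fold change of 0.41 (SE 0.07, adjusted p = 0.0324) and Col13a1 of 0.73 (SE 0.13, adjusted p = 0.0315). Type IV chains lay above wild type without passing: Col4a1 had 0.44 (SE 0.10, adjusted p = 0.0681), Col4a5 had 0.45 (SE 0.12, adjusted p = 0.0954) and Col4a2 had 0.34 (SE 0.12, adjusted p = 0.155). Col1a1 had 0.61 (SE 0.37, adjusted p = 0.362), Col5a1 0.62 (SE 0.19, adjusted p = 0.130) and Col11a1 -0.99 (SE 0.31, adjusted p = 0.132). In the fit of these 2 groups alone neither call was kept (Col18a1 0.41, adjusted p = 0.0594; Col13a1 0.73, adjusted p = 0.0600), and Col5a1 passed in their place (0.62, adjusted p = 0.0416). Without heterozygous replicate 1 no chain passed, with adjusted p of 0.173 for Col18a1 and 0.141 for Col13a1. With the sex term heterozygotes are compared with wild-type replicate 1 only, as in the fit without wild-type replicate 2. In both, Col4a1 and Col4a2 passed and Col18a1 and Col13a1 did not. In that fit without wild-type replicate 2 the log2 fold changes were 0.59 for Col4a1 (adjusted p = 0.0262), 0.53 for Col4a2 (adjusted p = 0.0242), 0.31 for Col18a1 (adjusted p = 0.0854) and 0.82 for Col13a1 (adjusted p = 0.0683). Without wild-type replicate 1 Col13a1 was lost (0.65, adjusted p = 0.105), and without heterozygous replicate 2 Col18a1 was lost (0.43, adjusted p = 0.0852) while 2 chains, Col9a1 and Col26a1, were lower. Without either mutant library the shared spread was estimated from fewer libraries, and Col5a1 alone passed (0.63 and 0.62, adjusted p = 0.0370 and 0.0428).

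Between mutants and heterozygotes no chain passed in either direction, where 0.0724% of all genes were higher and 0.362% lower in mutants. Both mutant libraries were female and both heterozygous ones male, so genotype and sex cannot be told apart within these 4 libraries, and all values of this comparison carry both. At an unadjusted p under 0.05, 9 of the 35 chains differed, where 3228 of all 15187 genes did. DESeq2 called 3 higher (Col1a1, Col1a2 and Col5a2) and 2 lower (Col11a1 and Col2a1), where 699 and 614 of the 15187 genes were. The smallest adjusted p was that of Col1a1, with 1.35 (SE 0.37, adjusted p = 0.131). Col4a1 had 0.22 (SE 0.10, adjusted p = 0.291), Col13a1 overlapped between these groups, and Col11a1 had -1.10 (SE 0.32, adjusted p = 0.145).

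The genes that make and anchor collagens were counted in the same fit of mutants against wild type, where 17.1% of all genes were higher and 13.6% lower. Of 15 tested enzymes of prolyl and lysyl modification, 6 were higher and 2 lower. Crtap, a helper of the prolyl 3-hydroxylase complex, read 17.1 and 18.5 RPKM in wild type, 27.0 and 24.5 in heterozygotes and 33.5 and 33.8 in mutants (0.93, SE 0.08, adjusted p = 0.00139). Its partner in that complex, the proline isomerase Ppib, rose by 0.54 (SE 0.06, adjusted p = 0.00374). The prolyl 3-hydroxylases Lepre1 and Leprel1 rose by 0.62 (adjusted p = 0.0111) and 0.73 (adjusted p = 0.00429). A further prolyl 3-hydroxylase, Leprel2, was lower (-0.80, SE 0.17, adjusted p = 0.0200), as was Plod2 of the same list (-0.42, SE 0.12, adjusted p = 0.0474). Of 6 chaperones and export factors, 2 were higher and 1 lower. Sparc, a collagen-binding matrix protein, read 51.2 and 63.7 RPKM in wild type, 86.7 and 81.7 in heterozygotes and 126 and 104 in mutants (1.01, SE 0.13, adjusted p = 0.00504). The export factor Ctage5 rose by 0.46 (adjusted p = 0.00459), Fkbp14, a proline isomerase of the endoplasmic reticulum, differed by -1.29 (adjusted p = 0.00404), and Mia3, a cargo receptor for bulky procollagen, had 0.19 (adjusted p = 0.0556).

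Among 8 tested genes of propeptide processing, 2 were higher and none lower. Adamts2, the protease that removes the N-terminal propeptide of fibrillar procollagens, read 0.418 and 1.06 RPKM in wild type, 1.77 and 1.64 in heterozygotes and 5.85 and 4.35 in mutants (2.81, SE 0.42, adjusted p = 0.00721), in separate ranges. Pcolce, an enhancer of C-terminal propeptide removal, rose by 0.55 (adjusted p = 0.0176), while the proteases Adamts14 (-0.83, adjusted p = 0.0958) and Tll1 (0.82, adjusted p = 0.124) did not pass. Of 6 crosslinking enzymes 1 was higher and 1 lower. Loxl1, a lysyl oxidase better known for elastic fibres, read 1.45 and 1.55 RPKM in wild type, 3.68 and 4.13 in heterozygotes and 10.1 and 6.38 in mutants (2.47, SE 0.24, adjusted p = 0.00196). Loxl3 went down (-1.13, SE 0.21, adjusted p = 0.0139), and Loxl4 (1.48, adjusted p = 0.0935) and Lox (-1.65, adjusted p = 0.138) did not pass.

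Of 7 tested collagen receptors, 3 were higher and 1 lower. The receptor kinase Ddr2, which binds fibrillar collagens, read 3.09 and 3.87 RPKM in wild type, 1.58 and 2.56 in heterozygotes and 0.670 and 0.526 in mutants (-2.53, SE 0.28, adjusted p = 0.00286). Ddr1, the related kinase of epithelia, differed in the opposite direction (0.33, SE 0.09, adjusted p = 0.0399). The integrin subunits Itgb1 and Itga1, which pair as a collagen receptor, rose by 0.41 (adjusted p = 0.0107) and 1.44 (adjusted p = 0.0137).

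Of 15 other basement membrane components, 7 were higher and 1 lower. Nid2, a nidogen that links laminin and type IV networks, read 34.96 and 36.9 RPKM in wild type, 63.5 and 59.0 in heterozygotes and 77.2 and 69.8 in mutants (1.04, SE 0.07, adjusted p = 0.000796). The laminin chain Lama5 rose by 0.66 (adjusted p = 0.00969), and the proteoglycan Agrn rose by 0.32 (adjusted p = 0.0124). Lamc3, a laminin chain of low level here, fell from 0.434 and 0.932 RPKM in wild type to 0.0758 and 0.0345 in mutants (-3.58, SE 0.60, adjusted p = 0.00969). Of 8 tested collagenases, gelatinases and their inhibitors, 3 were higher and 2 lower. The membrane proteases Mmp15 and Mmp14 rose by 0.62 (adjusted p = 0.00111) and 0.50 (adjusted p = 0.00898), while the inhibitor Timp3 differed by -0.99 (adjusted p = 0.0104) and the gelatinase Mmp9 by -1.25 (adjusted p = 0.0380). In heterozygotes against wild type the genes of these lists that were higher were Crtap, Leprel1, Loxl1, Nid2 and Mmp15, and none was lower. Against heterozygotes none of the listed genes passed in mutants.

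Over the 7 lists 32 genes passed in mutants against wild type. Crtap, Ppib, Lepre1, Leprel1, Sparc, Adamts2, Loxl1, Ddr2, Nid2, Lama5, Lamc3, Mmp14 and Mmp15 were among those that passed in every fit that left out 1 library. Each such fit also called fewer of all genes tested, higher and lower, so losses below are not particular to these lists. Other basement membrane components had 3 higher genes in place of 7 without wild-type replicate 1, without mutant replicate 1 or without mutant replicate 2, and 2 lower genes in the last pair of these fits. In those 3 fits and without wild-type replicate 2, no gene of the prolyl and lysyl list was lower and 1 propeptide processing gene was higher. Pcolce was the one lost in all 4, with log2 fold changes of 0.51 to 0.60 and adjusted p of 0.0587 to 0.0908. Without mutant replicate 1 or mutant replicate 2 the crosslinking list had no lower gene, with Loxl3 at -1.15 and -1.11 (adjusted p = 0.0698 and 0.0658), and the collagenase list had none, with Timp3 at -1.02 and -0.96 (adjusted p = 0.0527 and 0.0540) and Mmp9 at -1.25 and -1.26 (adjusted p = 0.145 and 0.131). Mmp9 was lost as well without wild-type replicate 2 (-0.80, adjusted p = 0.112) and without heterozygous replicate 2 (-1.26, adjusted p = 0.0505). Among receptors, Itga1 missed the threshold without mutant replicate 1 (1.30, adjusted p = 0.0683), and Ddr1 passed only in the fit without mutant replicate 2, with 0.20 to 0.38 and adjusted p of 0.0681 to 0.137 in the 5 others. Agrn was lost without wild-type replicate 2 (0.29, adjusted p = 0.0740) and without mutant replicate 2 (0.25, adjusted p = 0.0549).

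**Figure D5:**
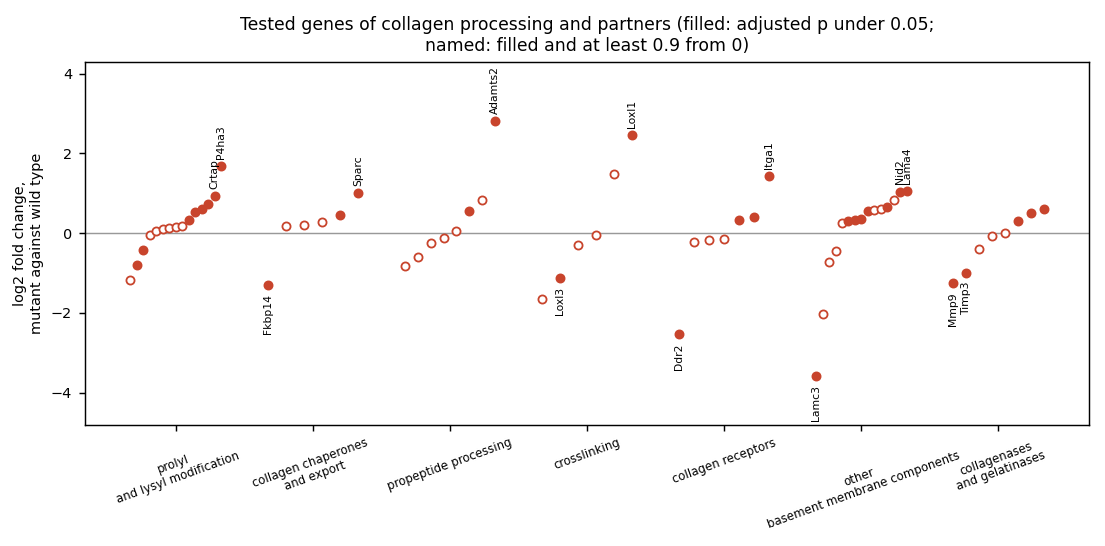
Log2 fold change of mutants against wild type for tested genes of 7 lists of collagen processing, receptors and partners, 1 point per gene, filled where the adjusted p is under 0.05. Adamts2 (2.81) and Loxl1 (2.47) are the highest points, and Lamc3 (-3.58) and Ddr2 (-2.53) the lowest.

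In the authors' deposited table of mutants against wild type, 10 collagen chains were higher and 6 lower at a false discovery rate under 0.05, where 8.74% and 5.56% of its 24062 rows were. All 10 higher chains and 4 of the 6 lower ones passed in the fit described here as well. The 2 others in the authors' deposited table were Col2a1 (-0.38, false discovery rate 0.0460) and Col26a1 (-0.76, false discovery rate 0.00493), and Col7a1 was not among its calls (-0.53, false discovery rate 0.129).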

How the data were processed

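The members and gene lists were chosen with earlier results of these data known. Per the labels' protocols, libraries were stranded and paired-end; the submitters' processing notes name TopHat2 2.0.11 with mm10, HTSeq 0.6.1p2 and edgeR 3.8.6, and for read preparation cutadapt 1.8, Trim Galore 0.4.0, FastQC 0.11.2 and bcl2fastq 2.17. The authors deposited raw counts for 24062 gene symbols per library, with 5 summary lines that were left out; no feature, ambiguous and non-unique reads made up 8.93% to 10.5%, 1.04% to 1.08% and 12.7% to 14.5%. The authors deposited RPKM values per library, with a log2 fold change and p-values (false discovery rates) of their own, in a table whose columns carry the sample titles; how the RPKM lengths were set is not given in the sources used here. Each count file was taken by the title it bears, and as attached for an alternative.

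The quasi-likelihood F-test of edgeR 4.0.16 (R 4.3.3) was run on these counts after TMM scaling and filterByExpr by group, with the 3 genotypes fitted together (3 residual degrees of freedom); p-values were adjusted by Benjamini-Hochberg over 15187 genes, with a threshold of 0.05. The standard error is the log2 fold change over the square root of F. CPM of single genes uses TMM library sizes, and list sums use library totals. Values were given per library, or as a range for some chains that did not pass, for chains with a mean of at least 1 RPKM or passing with at least 1 CPM. Up to 4 genes of each list with the smallest p were given by fold change, some also per library. A few further list genes were named for their direction. Alternatives were other scalings (including to the neural progenitor list), no filter, DESeq2 1.42.0, limma 3.58.1 on log2 RPKM with 0.1 or 1 added, 2-group fits, a term for sex read from Xist and Y-linked reads, and leaving out each library. The fit was tested on simulated counts. Gene positions are GENCODE M21 on GRCm38, and the promoter windows are from RefSeq.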

Additional observations from a re-analysis of the deposited data

How the results depend on the processing

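With the count files as attached to the samples, 0 chains were higher and 0 lower in any comparison (mutants against wild type had 2 chains at an unadjusted p under 0.05), and 11 chains called in mutants changed sign: Col11a1 (0.15), Col15a1 (0.98), Col18a1 (-0.081), Col1a1 (-0.71), Col1a2 (-0.34), Col25a1 (0.030), Col4a5 (-0.11), Col5a1 (-0.32), Col5a2 (-0.23), Col7a1 (0.022) and Col9a2 (0.16). That alternative exchanges 1 wild-type and 1 mutant library. Scaling libraries by the neural progenitor markers shifted the all-gene median by 0.80 in mutants and 0.29 in heterozygotes against wild type. Between mutants and heterozygotes the shift was 0.50. This scaling gave 17 higher and 3 lower chains in mutants, where 11369 and 363 of 15187 genes were. In heterozygotes 6 chains were higher, where 3126 genes were, and between mutants and heterozygotes 14, where 9063 genes were. By its construction it moves all genes alike, so chains with small negative values turned, Col7a1 (0.28) and Col16a1 (0.59) with a call in either fit and Col2a1 (0.43), Col23a1 (0.52) and Col6a1 (0.60) among those without. The term for sex set mutants against wild-type replicate 2 alone and heterozygotes against wild-type replicate 1 alone. The calls it lost in mutants are named above. In mutants limma with 1 added gave 3 lower chains, where 2025 of 15187 genes were lower. DESeq2 gave 6 higher and 2 lower chains in heterozygotes, where 1416 and 474 of 15187 genes were. Between mutants and heterozygotes it gave 3 and 2, where 699 and 614 genes were. The fit of 2 groups gave 1 higher chain in heterozygotes (Col5a1), where 714 of 14776 genes were higher, and kept neither Col13a1 nor Col18a1. Leaving out 1 library gave 5 to 10 higher and 2 to 7 lower chains in mutants, 0 to 2 higher and 0 to 2 lower in heterozygotes, and 0 between mutants and heterozygotes; no direction of a called chain turned. Against wild type, each fit without 1 library also called fewer of all genes tested, both higher and lower in mutants and higher in heterozygotes. Changes in these counts of chains are therefore not particular to collagens. The type IV share of collagen was 31.9%, 35.04% and 36.3% in CPM, which does not divide by length. RLE and upper-quartile scaling kept all 15 calls in mutants. The cause of these changes was not tested. No paired analysis was possible because the replicate numbers follow accession order. Depth limits the 9 untested chains, and 3 reads equal 0.0742 to 0.102 CPM.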
